A study of Homo sapiens with 6 samples.

Results

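The cytosolic ribosomal protein genes were described in cells labelled SW403, an established human colon adenocarcinoma line, with normal or lowered IRS2. The set comprised every row of the count table whose symbol is RPL or RPS with a number, alone or followed by A, X, L, AL or L1, together with RPLP0, RPLP1, RPLP2 and RPSA. It held 85 of the 26490 gene rows. Of these, 46 were main genes of the large subunit, 31 were main genes of the small subunit, and 8 were like-paralogues, whose symbols end in L or L1 and name them after a main gene. The rule reads symbols and no measured value, but the set was proposed with earlier results of these data known.

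The comparison was between 3 control libraries (labelled WT and NS, normal IRS2 expression) and 3 IRS2 knockdown libraries (labelled IRS2_knockdown and IRS2KO). Both groups were untreated cells of the same line, seeded in triplicate and grown for 24 h in DMEM with serum. The labels do not give the means by which IRS2 was lowered, nor whether 1 or several derived lines supplied the cultures. They call the 3 libraries of a group biological replicates, so p-values measure the spread between cultures of 1 cell line.

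The ribosome is built from ribosomal RNA and about as many different proteins as there are main genes here, most of them needed in equal number by nearly every ribosome. Its large subunit joins amino acids and threads the new chain through an exit tunnel, and its small subunit reads the messenger RNA. Messages of ribosomal proteins usually begin with a C and an unbroken run of pyrimidines, the 5′ terminal oligopyrimidine or TOP tract, through which their translation responds to mTOR, a kinase downstream of the insulin and IGF1 receptors. IRS2, insulin receptor substrate 2, is an adaptor that couples those receptors to this route. Several ribosomal proteins have a paralogue from a separate gene that can replace the main protein in a part of the ribosomes or is made mainly in a few tissues, such as testis or muscle.

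The starts of the genes on which the results turn are shown first, because a run at the annotated start was found at most main genes and at 1 of 6 paralogues. Each line gives 10 bases before and 20 bases from the start annotated by RefSeq on GRCh38.p14, on the transcribed strand, with the unbroken run of C and T that begins with a C at the start in capitals where it reaches 5 bases. The first 4 genes fell or rose most among the main genes whose start was found, and the other lines pair main genes with their paralogues.
RPL24 (chr3:101686699-101686728, minus strand): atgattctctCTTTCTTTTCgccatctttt
RPL9 (chr4:39458903-39458932, minus strand): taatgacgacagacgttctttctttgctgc
RPL17 (chr18:49492446-49492475, minus strand): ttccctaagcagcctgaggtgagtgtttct
RPL10 (chrX:154398367-154398396, plus strand): ggaggagcgcCTCTTTCCCTTCggtgtggt
RPL22 (chr1:6199576-6199605, minus strand): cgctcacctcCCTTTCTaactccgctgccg
RPL22L1 (chr3:170870176-170870205, minus strand): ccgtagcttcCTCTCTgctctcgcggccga
RPL26 (chr17:8383174-8383203, minus strand): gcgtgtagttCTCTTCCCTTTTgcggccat
RPL26L1 (chr5:172958719-172958748, plus strand): tccaggggtcggcgaacgaaacgcggagct
RPS27 (chr1:153990752-153990781, plus strand): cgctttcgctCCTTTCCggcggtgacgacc
RPS27L (chr15:63157458-63157487, minus strand): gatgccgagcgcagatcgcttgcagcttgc
RPL36A (chrX:101391001-101391030, plus strand): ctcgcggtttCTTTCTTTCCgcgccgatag
RPL36AL (chr14:49620607-49620636, minus strand): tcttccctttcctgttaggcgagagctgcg

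Of the 85 members, 68 had a start in the RefSeq table, and 47 of these (69.1%) had a run of at least 5 pyrimidines from a C at an annotated start, against 1404 of all 27305 genes of that table (5.14%). By subunit, 28 of 38 large subunit main genes and 18 of 24 small subunit main genes had the run. Among the 6 paralogues with a start, RPL22L1 was the one that had it, while RPL26L1, RPS27L, RPL36AL, RPL7L1 and RPL10L did not. In RPL36AL an unbroken stretch of C and T crosses the annotated start, and 3 of its bases lie from the start on. Its count thus depends on where the start is annotated. Where a gene had several annotated starts, the one with the longest run was counted, for members and other genes alike. These are letters at an annotated start, and the starts used in SW403 were not measured. No run at the RefSeq start of RPL9 or RPL17 says only that no run begins at that base. The RPL9 window holds an unbroken stretch of C and T a few bases further on.

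IRS2 (chr13:110405042-110438930 on GRCh37) was the check of the labels. Its counts were 408, 437 and 381 in the control libraries and 186, 210 and 216 in the knockdown libraries, or 32.1, 34.6 and 31.8 against 13.1, 12.4 and 12.1 CPM (counts scaled here to each library's TMM effective size). The groups did not overlap, and IRS2 fell by 1.39 ± 0.07 on the log2 scale (SE, n = 3 per group; edgeR quasi-likelihood test, adjusted p = 3.11e-11). Library totals were 11816973 to 12585013 counts in control and 14329348 to 18114656 in knockdown, so the knockdown libraries were the deeper ones. Of 10 epithelial markers, KRT8 and KRT18 were the highest and KRT20 and CDX1 were at 0 in every library. CDH1, CDH17 and LGALS4 were each below 1 CPM in every library. The epithelial sum was 2279 to 2366 CPM in control and 2227 to 2324 CPM in knockdown, most of it KRT8 and KRT18. Within the list EPCAM fell (log2 fold change -0.21, edgeR adjusted p = 0.00581) and CDX2 rose (0.14, adjusted p = 0.0148). VIM, a mesenchymal marker, was at 1148 to 1179 CPM in control and 1050 to 1092 CPM in knockdown. Markers of the line thus went in part against its label, which was taken as given. Of 10 stromal, blood and endothelial markers, PECAM1 was at 0 and the sum was 11.2 to 29.1 CPM in control and 8.39 to 9.98 CPM in knockdown. The collagens COL1A1 (log2 fold change -1.15, adjusted p = 0.0029) and COL3A1 (-1.71, adjusted p = 0.0136) fell, and COL1A1 was highest in control 1 (15.2 CPM against 3.67 to 5.70 CPM in the others). The part of these markers in the results was not tested.

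Together, the members took a smaller share of the RNA counted in the knockdown. They made up 5.26%, 5.17% and 5.00% of all counts in control libraries 1 to 3 and 4.69%, 4.72% and 4.94% in knockdown libraries 1 to 3. The groups did not overlap, but control 3 and knockdown 3 lay close to each other. The means were 5.14% ± 0.13 and 4.78% ± 0.13 (SD, n = 3), a log2 difference of -0.10. A share is relative to all other RNA: fewer ribosomal protein messages per cell and more of everything else cannot be told apart in bulk libraries, and neither can a change in all cells and a change in some of them.

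Both subunits lay lower. Large subunit main genes took 3.10%, 3.06% and 2.96% of counts in control and 2.76%, 2.77% and 2.90% in knockdown, a log2 difference of -0.11. Small subunit main genes took 2.09%, 2.05% and 1.99% in control and 1.87%, 1.89% and 1.98% in knockdown, a log2 difference of -0.09. The log2 ratio of the large to the small subunit sum was 0.57 in all 3 control libraries and 0.56, 0.55 and 0.56 in the knockdown libraries, a difference of -0.02 without overlap between groups. This difference is small beside the common shift and carries no test, since it is a score over chosen members. Paralogues took 0.0625%, 0.0635% and 0.0615% in control and 0.0550%, 0.0554% and 0.0562% in knockdown, a log2 difference of -0.17.

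**Figure D1:**
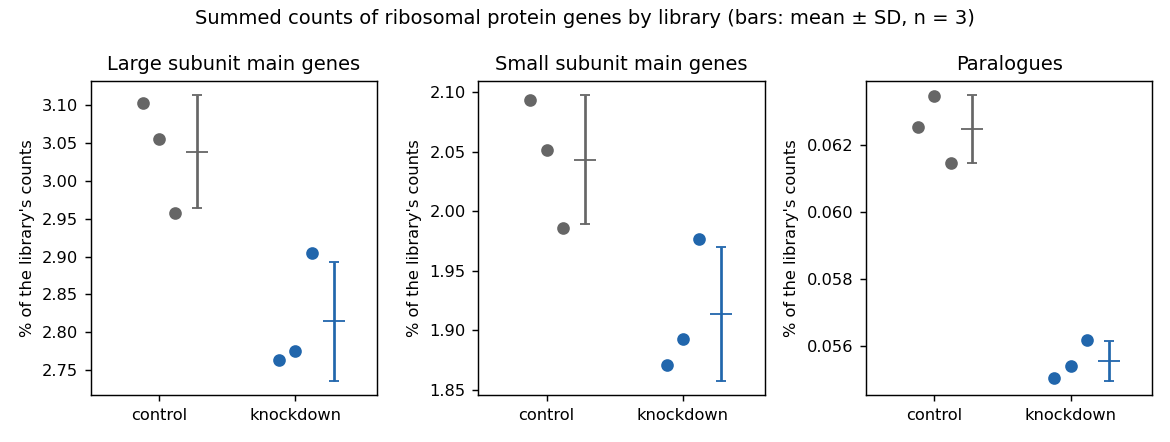
Share of each library's counts (y axes, percent, which do not start at 0 and differ between panels) taken by large subunit main genes, small subunit main genes and paralogues in control (grey) and knockdown (blue) libraries, with points for libraries and bars for mean ± SD (n = 3). The groups do not overlap in any panel, and knockdown 3 lies nearest to the control libraries.

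Gene by gene, the main pattern was a shallow, one-sided fall. Of the 85 members, 83 passed the expression filter, and RPL3L and RPL10L did not. Of the 83, 41 fell, 1 rose (RPL10) and 41 did not pass the threshold (edgeR quasi-likelihood test, Benjamini-Hochberg adjusted p under 0.05 over all 13832 tested genes). Over all tested genes, 38.5% passed in either direction, 19.2% lower and 19.3% higher, against 50.6% of the members past the threshold in either direction and 49.4% lower. With DESeq2's Wald test 37 members fell and RPL10 rose. The median log2 fold change was -0.09 for the members and -0.00 for all tested genes, and 74 of the 83 members were below 0. In 32 members (38.6%) every knockdown library lay below every control library, and in 1 every knockdown library lay above. Over all tested genes these shares were 23.9% and 23.7%.

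The size of the count depended on scaling and on single libraries. Scaled by library size alone, 62 members fell. Without control 2 it was 27 and without knockdown 2 it was 24, while without knockdown 3 it was 58. The number of all genes past the threshold in either direction moved too, from 5328 in the main fit. It was 5407 with library size alone, 4467 without control 2, 4319 without knockdown 2 and 5256 without knockdown 3. With an offset for transcript length and GC content, 37 members fell and 6 rose. In every one of the 18 alternative fits in which they were tested, 22 members passed as lower, and 61 members were below 0.

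**Figure D2:**
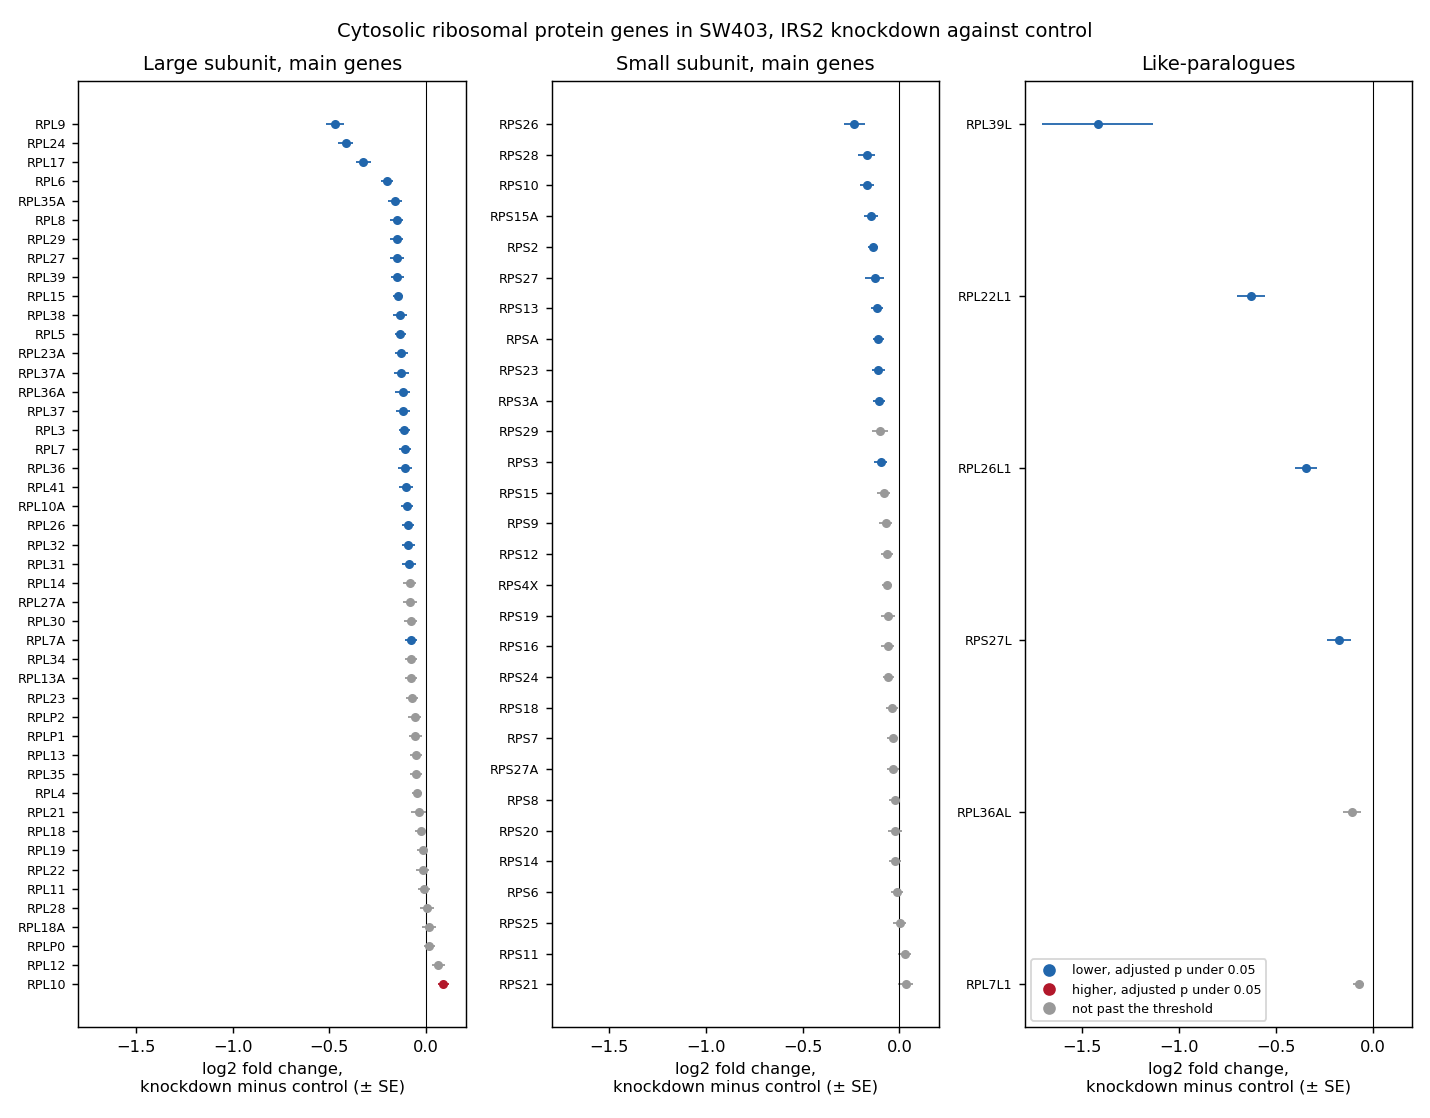
Log2 fold change of knockdown against control (x axes, ± SE) for 81 of the 83 tested members, in panels for large subunit main genes, small subunit main genes and paralogues, ordered from the lowest value. Blue marks members that passed as lower, red the single member that passed as higher (RPL10) and grey the others. Most points lie a little below 0, with RPL9, RPL24, RPL17 and the paralogues RPL39L, RPL22L1 and RPL26L1 apart from the rest.

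Among main genes of the large subunit, 25 of 46 fell (54.3%, against 19.2% of all tested genes) and RPL10 rose. The log2 fold changes of the 46 ran from -0.47 to 0.09, with a median of -0.09. Without control 1, control 2 or knockdown 2, 15, 15 and 13 of them passed as lower. RPL9, a protein near the base of the stalk, was at 106, 98.9 and 104 CPM in control and 75.1, 69.3 and 78.2 CPM in knockdown, a fall of 0.47 ± 0.05 on the log2 scale (SE; edgeR adjusted p = 2.25e-07). The fall was several times the spread within either group.

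RPL24, which reaches across to the small subunit, was at 302, 294 and 280 CPM in control and 209, 217 and 231 CPM in knockdown (log2 fold change -0.41 ± 0.04, SE; edgeR adjusted p = 8.56e-08). RPL17, part of the wall of the exit tunnel, was at 381, 395 and 368 CPM in control and 292, 298 and 323 CPM in knockdown (log2 fold change -0.33 ± 0.04, SE; edgeR adjusted p = 1.46e-06). In both genes knockdown 3 was the highest of the knockdown libraries and still below every control library. Next in size was RPL6, a protein of the outer face of the large subunit, at 1016, 1023 and 995 CPM in control and 851, 863 and 925 CPM in knockdown (log2 fold change -0.20 ± 0.03, SE; edgeR adjusted p = 4.53e-05). These 4 genes stood below all other main genes of their subunit, the next being RPL35A at -0.16, and each passed in all 18 alternatives.

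RPL10, which is among the last proteins to join the large subunit and is needed before it can pair with the small one, was the member that rose. It was at 1437, 1419 and 1366 CPM in control and 1470, 1474 and 1539 CPM in knockdown, a log2 fold change of 0.09 ± 0.03 (SE; edgeR adjusted p = 0.0202). The groups did not overlap, but RPL10 passed in 14 of the 18 alternatives, and upper-quartile scaling, library size alone and leaving out control 3 were among those that ended the call. RPL12, at the base of the stalk, was at 460, 464 and 438 CPM in control and 461, 465 and 494 CPM in knockdown, groups that overlapped (log2 fold change 0.06, edgeR adjusted p = 0.164). The length and GC offset moved RPL12 past the threshold, at 0.09 (edgeR adjusted p = 0.0047).

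The stalk, through which the large subunit recruits elongation factors, held 0 of 3 members past the threshold in edgeR, DESeq2 or limma voom, and 0 had an unadjusted p under 0.05. RPLP0, its core, was at 1268, 1253 and 1223 CPM in control and 1226, 1264 and 1294 CPM in knockdown, with overlapping groups and a log2 fold change of 0.02 (edgeR adjusted p = 0.701) that turned negative with library size alone (-0.01), with upper-quartile scaling (-0.01) and without knockdown 3 (-0.00). RPLP1 was at -0.06 (adjusted p = 0.191) and RPLP2 at -0.06 (adjusted p = 0.189).

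RPL5 and RPL11 carry the 5S ribosomal RNA into the large subunit and, when ribosome assembly stalls, bind and restrain MDM2, the ligase that degrades p53. RPL5 was at 835, 874 and 831 CPM in control and 760, 767 and 789 CPM in knockdown and fell (log2 fold change -0.13 ± 0.03, SE; edgeR adjusted p = 0.00117, past the threshold in all 18 alternatives). RPL11 was at 591, 590 and 578 CPM in control and 573, 568 and 603 CPM in knockdown, so its groups overlapped and it did not pass (log2 fold change -0.01, adjusted p = 0.783). Its sign changed to 0.02 under the length and GC offset and to 0.00 without knockdown 2. The difference between RPL5 and RPL11 was not tested.

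Among main genes of the small subunit, 12 of 31 fell and 0 rose in edgeR (1 higher at an unadjusted p under 0.05, 0 in DESeq2 and 1 in limma voom), with a lowest log2 fold change of -0.23 and a median of -0.06. The share past the threshold in either direction (38.7%) was near that of all tested genes (38.5%). The share that fell was 38.7%, against 19.2% of all tested genes. Scaled by library size alone, 20 passed as lower, and without knockdown 3 it was 19. With the length and GC offset 11 passed as lower and 4 as higher, among them RPS21. RPS26, which lies along the exit of the messenger RNA channel, was at 49.4, 52.0 and 49.6 CPM in control and 40.7, 42.1 and 45.4 CPM in knockdown (log2 fold change -0.23 ± 0.05, SE; edgeR adjusted p = 0.00178).

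RPSA, also known as the laminin receptor, was at 822, 806 and 788 CPM in control and 724, 753 and 763 CPM in knockdown (log2 fold change -0.11 ± 0.03, SE; edgeR adjusted p = 0.00599). RPS26 and RPSA had no overlap between groups and passed in all 18 alternatives. RPS2, RPS10, RPS15A and RPS28, with log2 fold changes of -0.14, -0.17, -0.15 and -0.17, also passed in all 18, though the groups of RPS15A overlapped.

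RPS21, a protein of the small subunit that lay above 0, was at 372, 370 and 343 CPM in control and 355, 362 and 393 CPM in knockdown (log2 fold change 0.03, edgeR adjusted p = 0.549). Its groups overlapped, and its sign changed without knockdown 3 (-0.01). With the length and GC offset it was at 0.10 (adjusted p = 0.00493).

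**Figure D3:**
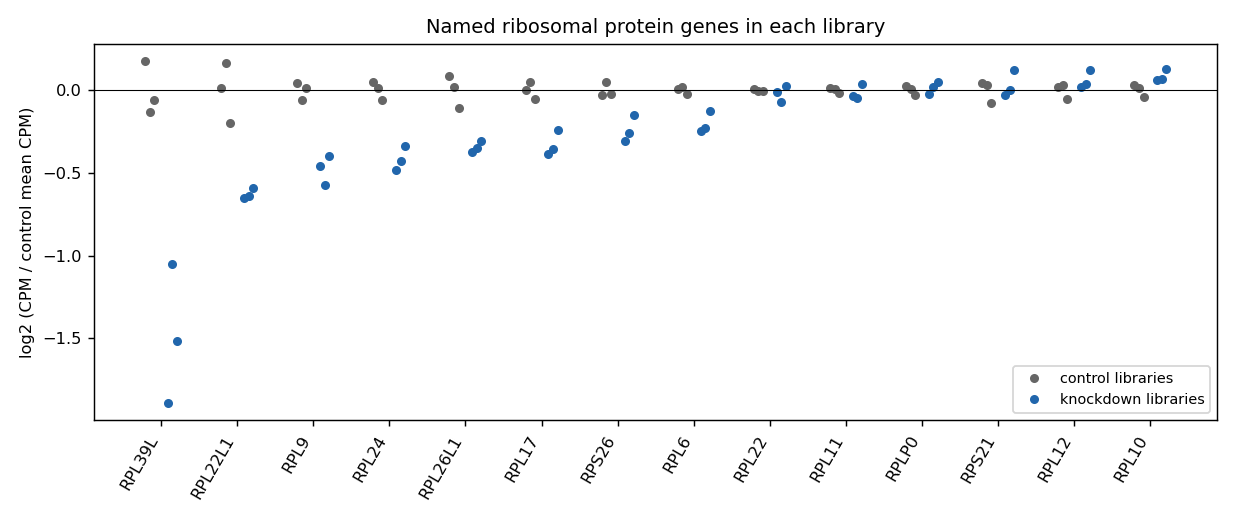
Level of 14 ribosomal protein genes in each library, as log2 of CPM over the mean CPM of the control libraries (y axis), with control libraries in grey and knockdown libraries in blue. From RPL39L to RPL6 every knockdown point lies below the control points, from RPL22 to RPL12 the groups overlap, and in RPL10 every knockdown point lies above.

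Of the 4 X-linked main genes, 2 passed as lower, RPL10 passed as higher and 1 did not pass. Differences between these genes were not tested. RPL39, a small protein lining the exit tunnel, was at 289, 291 and 277 CPM in control and 250, 255 and 268 CPM in knockdown and fell (log2 fold change -0.15 ± 0.03, SE; edgeR adjusted p = 0.00196). RPL36A was at 156, 156 and 143 CPM in control and 140, 137 and 142 CPM in knockdown and also fell (log2 fold change -0.12 ± 0.04, SE; edgeR adjusted p = 0.0188). With the length and GC offset, RPL39 was at -0.05 (adjusted p = 0.106) and RPL36A at -0.07 (adjusted p = 0.0853), which ended both calls. RPS4X was at 1354, 1367 and 1315 CPM in control and 1271, 1276 and 1315 CPM in knockdown, overlapping at its edge, and did not pass (log2 fold change -0.06, adjusted p = 0.0684). With the offset RPS4X was at -0.04 (edgeR adjusted p = 0.106).

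The paralogues RPL39L and RPL22L1 had the largest falls of the whole set. Of the 6 paralogues tested, 4 fell (66.7%, against 19.2% of all tested genes), namely RPL39L, RPL22L1, RPL26L1 and RPS27L. In DESeq2 3 fell. In edgeR, DESeq2 or limma voom 0 rose, and RPL36AL and RPL7L1 did not pass in edgeR. The median log2 fold change of the 6 was -0.26. RPL22L1, the paralogue of the RNA-binding protein RPL22, was at 41.5, 46.0 and 35.8 CPM in control and 26.1, 26.4 and 27.3 CPM in knockdown, a fall of 0.63 ± 0.07 on the log2 scale (SE; edgeR adjusted p = 1.67e-06). The main gene RPL22 was at 222, 220 and 220 CPM in control and 219, 210 and 224 CPM in knockdown, with overlapping groups (log2 fold change -0.02, adjusted p = 0.723; 0.01 without knockdown 2).

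Since a ratio of paralogue to main gene within a library does not depend on how libraries are scaled, the pairs were also compared in that form. RPL22L1 made up 15.8%, 17.3% and 14.0% of the counts of its pair in control and 10.7%, 11.2% and 10.8% in knockdown. The difference of the log2 ratio was -0.60 (exact two-sided permutation test, p = 0.1; 0.2 adjusted over the 6 pairs). With 3 libraries against 3, 0.1 is the smallest p this test can give, so no pair could pass 0.05.

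RPL26L1, whose protein differs from RPL26 in few residues, was at 54.0, 51.5 and 47.2 CPM in control and 39.3, 39.96 and 41.0 CPM in knockdown, 21.2% lower (log2 fold change -0.34 ± 0.06, SE; edgeR adjusted p = 6.59e-05). RPL26 was at 837, 841 and 807 CPM in control and 760, 760 and 811 CPM in knockdown (log2 fold change -0.09, adjusted p = 0.0226, and -0.02 with adjusted p = 0.567 under the length and GC offset). RPL26L1 made up 6.06%, 5.76% and 5.52% of the pair in control and 4.91%, 4.99% and 4.82% in knockdown, a log2 ratio difference of -0.25 without overlap (exact permutation p = 0.1, adjusted 0.2).

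RPL39L (chr3:186838736-186898696 on GRCh37), known for its expression in testis, was the lowest of the tested paralogues and had the largest fall. Its counts were 30, 24 and 24 in control and 8, 17 and 13 in the deeper knockdown libraries, or 2.36, 1.90 and 2.003 against 0.562, 1.005 and 0.729 CPM. The groups did not overlap, and the log2 fold change was -1.42 ± 0.29 (SE; edgeR adjusted p = 5.7e-04), a value whose error reflects the few counts behind it. The difference of its log2 ratio to RPL39 was -1.33 (exact permutation p = 0.1, adjusted 0.2), with RPL39L at 0.649% to 0.809% of the pair in control and 0.225% to 0.393% in knockdown.

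RPS27L, a paralogue of RPS27 that is also a target of p53, was at 35.0, 36.8 and 32.4 CPM in control and 29.6, 31.0 and 31.8 CPM in knockdown (log2 fold change -0.17 ± 0.06, SE; edgeR adjusted p = 0.0326, past the threshold in 12 of 18 alternatives). RPS27 was at 145, 137 and 124 CPM in control and 122, 120 and 130 CPM in knockdown, with overlapping groups, and passed with an adjusted p of 0.0423 (log2 fold change -0.13; -0.04 and adjusted p = 0.453 with the length and GC offset). For this pair the difference of the log2 ratio was -0.05, with control libraries from -2.05 to -1.90 and knockdown libraries from -2.04 to -1.95 (exact permutation p = 0.5, adjusted 0.6).

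RPL36AL was at 122, 125 and 112 CPM in control and 110, 107 and 116 CPM in knockdown, with overlapping groups (log2 fold change -0.11, edgeR adjusted p = 0.0703). Its log2 ratio to RPL36A was -0.36 to -0.32 in control and -0.36 to -0.29 in knockdown, a difference of 0.01 (exact permutation p = 0.5, adjusted 0.6) that was -0.01 without knockdown 3. RPL7L1, a nucleolar relative of RPL7, was at 363, 369 and 376 CPM in control and 348, 353 and 353 CPM in knockdown (log2 fold change -0.07, adjusted p = 0.0617). RPL7 was at 675, 655 and 626 CPM in control and 588, 599 and 625 CPM in knockdown and fell (log2 fold change -0.11, adjusted p = 0.0111). The log2 ratio of RPL7L1 to RPL7 was -0.90 to -0.74 in control and -0.82 to -0.75 in knockdown (exact permutation p = 0.6, adjusted 0.6).

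RPL3L, the muscle paralogue of RPL3, had 8, 9 and 5 counts in control and 7, 11 and 2 in knockdown. RPL10L, the testis paralogue of RPL10, had 2 counts in knockdown 2 and 0 in the other libraries. Neither was tested or set in a ratio. Of their main genes, RPL3 was at 1168, 1169 and 1165 CPM in control and 1048, 1079 and 1111 CPM in knockdown and fell (log2 fold change -0.11 ± 0.03, SE; edgeR adjusted p = 0.0028).

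**Figure D4:**
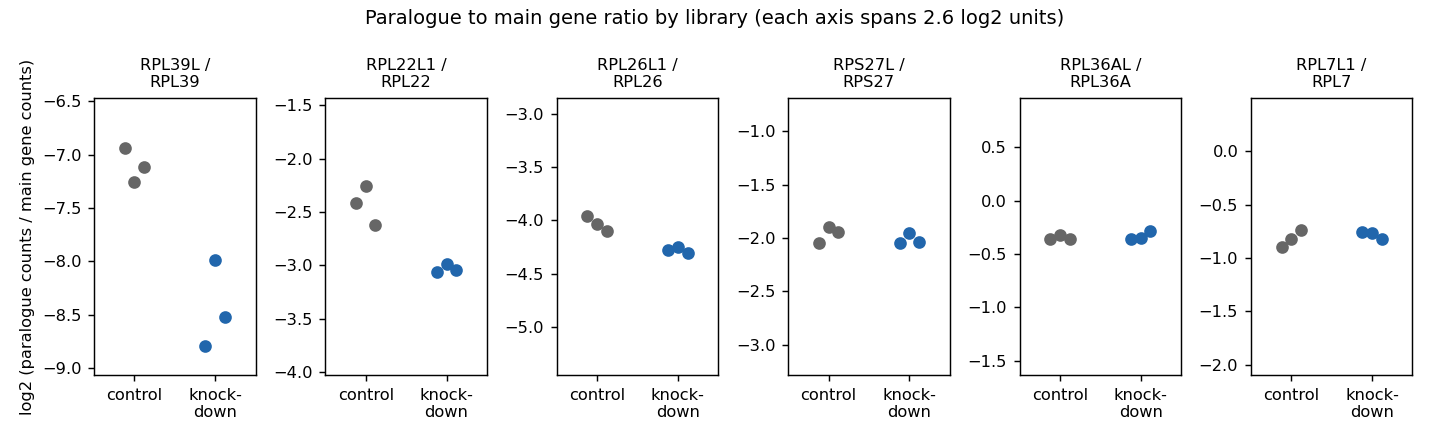
Log2 ratio of paralogue to main gene counts (y axes, each spanning the same number of log2 units) in the control (grey) and knockdown (blue) libraries for the 6 pairs with at least 5 paralogue counts in every library. RPL39L, RPL22L1 and RPL26L1 lie lower against their main genes in every knockdown library than in any control library, and the other pairs overlap.

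Per kilobase of the canonical GENCODE transcript, levels of main genes in control ranged from 44.1 CPM per kb (RPS26) to 2060 CPM per kb (RPS2), with a median of 706 CPM per kb. The paralogues were below most main genes: RPL36AL was at 177, RPL7L1 at 82.1, RPL26L1 at 70.5, RPL22L1 at 21.6, RPS27L at 5.69 and RPL39L at 2.86 CPM per kb in control. RPL36AL came close to its main gene on this scale, at 0.886 of the level of RPL36A in control and 0.895 in knockdown. RPL26L1 was at 0.0449 of RPL26 in control and 0.0378 in knockdown. For some genes the canonical transcript is far longer than the usual message (RPL37 at 7573 nt, RPL14 at 7136 nt, RPS27L at 6110 nt), so their levels per kilobase depend on that choice of transcript.

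Fold changes were also set beside transcript length. Other genes with a canonical transcript under 1000 nt and a mean of at least 1000 counts numbered 179, of which 51 fell and 24 rose, with a median log2 fold change of -0.05. Main genes under 1000 nt numbered 44, of which 20 fell and 0 rose in edgeR (1 higher at an unadjusted p under 0.05, 0 in DESeq2 and 1 in limma voom), with a median of -0.08. Among genes of 1000 nt or more the gap was wider: of 33 main genes 17 fell and 1 rose, with a median of -0.09, while of 3219 other genes with at least 1000 counts 509 fell and 1104 rose, with a median of 0.04.

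With the length and GC offset, the median of all members was -0.06 and that of all tested genes was -0.00. By canonical transcript length, the median with the offset was -0.02 for main genes under 1000 nt and -0.08 for those of 1000 nt or more. With it 21 large subunit members passed as lower and 2 as higher. RPL13 and RPL13A then passed as lower and RPL12 as higher, while RPL26, RPL36A and RPL39 were among those that no longer passed. Of the paralogues 5 passed as lower, RPL7L1 being added (adjusted p = 0.0365). RPL9, RPL24, RPL17, RPL22L1 and RPL39L were at -0.42, -0.35, -0.26, -0.61 and -1.39, all past the threshold. Beyond this offset, the part of transcript length in the fall of the main genes was not tested.

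**Figure D5:**
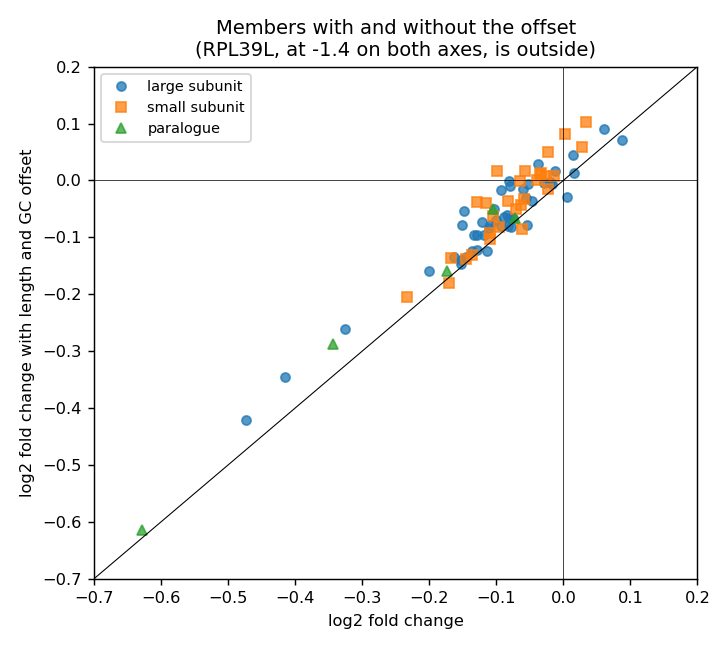
Log2 fold change of 81 tested members without (x axis) and with (y axis) the offset for transcript length and GC content, for large subunit main genes (blue circles), small subunit main genes (orange squares) and paralogues (green triangles). RPL39L, at -1.42 and -1.39, is outside the plotted range. Most members lie above the diagonal, nearer 0 with the offset, while RPL22L1, RPL9 and RPL24 remain at -0.61, -0.42 and -0.35.

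The main genes were also set beside features outside the rule. Those with the pyrimidine run at the start had a median log2 fold change of -0.07 (19 of 46 lower), and those with a start but no run had a median of -0.11 (10 of 16 lower). Some of those without it, RPL9 and RPS26 among them, had an unbroken stretch of C and T a few bases from the annotated start. The split follows the annotated start and does not show which messages lack a TOP tract. The 29 main genes that host small nucleolar RNA genes in their introns had a median of -0.08 (13 lower, 1 higher), and the 48 others a median of -0.09 (24 lower). Across the 77 main genes, Spearman's rho of the log2 fold change was -0.03 with canonical transcript length and 0.36 with mean log2 CPM. With the offset in place these were -0.36 and 0.13. The genes share their libraries and are not independent, and these values are descriptions.

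Reads of these genes can be shared with near-identical copies, and how such reads were assigned is not stated. The table held 15 rows whose symbols name them as pseudogenes of members. Together they took 0.0361% to 0.0383% of counts in control and 0.0331% to 0.0372% in knockdown. Of the 8 tested, 0 passed in edgeR and 0 had an unadjusted p under 0.05. The largest was RPL13AP5, at 331, 342 and 315 CPM in control and 297, 317 and 341 CPM in knockdown (log2 fold change -0.05, edgeR adjusted p = 0.411), next to RPL13A at 1442, 1375 and 1328 against 1266, 1293 and 1367 CPM (log2 fold change -0.08, adjusted p = 0.0683). RPL32P3 was at -0.14 (adjusted p = 0.203) and RPL13AP20 at -0.19 (adjusted p = 0.308). Readthrough rows overlap RPL17, RPL36A and RPS10. RPL17-C18orf32 had 55, 56 and 0 counts in control and 55, 133 and 37 in knockdown, few beside the mean of 4866 counts of RPL17. Values of RPL17, RPL36A, RPS10, RPL13A, RPL32, the paralogue pairs and other genes with many copies are uncertain to that extent, and whether strand was used is not stated either. RPS26 and RPL9 were low for main genes, at 44.15 and 142.3 CPM per kb in control against a median of 706.4. Whether shared reads had a part in these levels was not tested.

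FAU and RACK1, ribosomal proteins that carry other names, did not pass. FAU, whose product is processed into a small subunit protein, was at 243, 237 and 222 CPM in control and 217, 217 and 226 CPM in knockdown (log2 fold change -0.09, edgeR adjusted p = 0.0557). RACK1, a scaffold on the head of the small subunit, was at 0.01 (adjusted p = 0.82), and its sign changed with library size alone, upper-quartile scaling, a mean filter of 50 counts, and without control 3 or knockdown 3.

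Among the partners of the 5S particle and of nucleolar stress, 3 of 8 fell in edgeR (2 in DESeq2) and 0 rose, also at an unadjusted p under 0.05 and in DESeq2 or limma voom, with a median log2 fold change of -0.06. The share past the threshold (37.5%) was near that of all tested genes (38.5%). MDM2 was at 29.2, 29.5 and 27.96 CPM in control and 24.0, 21.1 and 20.2 CPM in knockdown (log2 fold change -0.42, edgeR adjusted p = 1.32e-04). CDKN2A, which encodes the MDM2 inhibitor ARF and the cell cycle inhibitor p16, was at 66.1, 63.5 and 62.0 CPM in control and 46.7, 51.3 and 48.5 CPM in knockdown (log2 fold change -0.39, edgeR adjusted p = 4.92e-06). MDM4 was the third (log2 fold change -0.24, adjusted p = 0.0195). The dedicated chaperones of ribosomal proteins had 2 of 10 members lower (1 in DESeq2), near the 19.2% of all tested genes that fell, and 0 higher in edgeR (1 higher at an unadjusted p under 0.05, 0 in DESeq2 and limma voom). The members that fell were NAP1L1, a histone chaperone put on this list by hand (log2 fold change -0.23, adjusted p = 2.29e-05), and TSR2, the chaperone of RPS26 (log2 fold change -0.12, adjusted p = 0.0295).

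Among genes of the machinery that makes ribosomes, the shares past the threshold are set beside the 38.5% of all tested genes. Of 46 small subunit assembly factors 6 fell and 6 rose (26.1% past the threshold), with a median log2 fold change of 0.01. KRR1 was at 47.7, 49.8 and 51.1 CPM in control and 30.7, 32.8 and 33.5 CPM in knockdown (log2 fold change -0.61, edgeR adjusted p = 5.1e-08), and the helicase DHX37 was at -0.35 (adjusted p = 6.7e-07). Both are parts of the particle that processes the small subunit's precursor, while UTP6, a part of the same particle, rose (0.20, adjusted p = 5.97e-04), as did TSR1 (0.12, adjusted p = 0.00276).

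Of 48 large subunit assembly factors 9 fell and 6 rose (31.2%), with a median of -0.02. The helicase DDX24 (-0.30, edgeR adjusted p = 7.13e-07) and BRIX1 (-0.21, adjusted p = 4.32e-04) fell, and the helicase DDX27 (0.25, adjusted p = 1.94e-05) and the export adaptor NMD3 (0.19, adjusted p = 0.00137) rose. Of 15 genes of RNA polymerase I and its factors 13.3% passed: the largest subunit gene POLR1A rose (0.24, adjusted p = 4.62e-05) and CD3EAP fell (-0.14, adjusted p = 0.0185). Of 9 core or associated proteins of small nucleolar ribonucleoproteins 33.3% passed: NOLC1, an associated one (-0.10, adjusted p = 0.0123), and NHP2 (-0.12, adjusted p = 0.0224) fell and the pseudouridine synthase DKC1 rose (0.14, adjusted p = 0.00121).

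Other messages known to begin with a TOP tract included 10 of 31 that fell (32.3%, against 19.2% of all tested genes) and 4 that rose, with a median log2 fold change of -0.05. EIF3F, a subunit of initiation factor 3, was at 148, 148 and 136 CPM in control and 101, 99.6 and 102 CPM in knockdown, the largest fall on the list (log2 fold change -0.52, edgeR adjusted p = 8.85e-09). NAP1L1, on this list too, came next. The nuclear import receptor IPO5 (0.23, adjusted p = 5.81e-06) and EIF3L, another subunit of initiation factor 3 (0.11, adjusted p = 0.014), rose. Of 11 regulators of TOP translation 18.2% passed: RPS6KB2, a kinase of ribosomal protein S6, fell (-0.27, adjusted p = 0.00118) and the translation repressor EIF4EBP2 rose (0.12, adjusted p = 0.00581), while LARP1, which binds the TOP tract, did not pass (-0.03, adjusted p = 0.505).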

How the data were processed

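Total RNA of 6 cultures was made into libraries from 1000 ng with the NEBNext Ultra II RNA kit, per the labels' protocols. The authors deposited whole-number read counts per gene symbol. The submitters' processing notes name STAR 2.6.1a, Salmon, DESeq2 and hg19 without their roles; the counting tool, annotation, strand setting and treatment of shared reads are not given in the sources used here. The normalized table was not used here. Counts were fitted in R 4.3.3 with edgeR 4.0.16 (TMM, filterByExpr, quasi-likelihood F-test, group only) over 13832 genes, adjusted by Benjamini-Hochberg, with a threshold of 0.05. SE is the absolute log2 fold change over the square root of F. The main, DESeq2, voom and replicate block fits were tested on simulated counts with changes larger than the median change of the members. Recovery of shifts as small as that median was not tested, nor were the offset and the permutation test. Lengths, GC content and GRCh37 coordinates came from 1 canonical GENCODE 44 transcript per gene (95.8% of tested genes); gene starts from RefSeq (68 of 85 members matched). The offset removed, in each library, a spline trend (5 degrees of freedom) of log2 CPM with length and GC content. Paralogue ratios used the exact permutation test.

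The members and the 9 gene lists, written by hand, were chosen with earlier results of these data known. Named were IRS2, paralogues and their main genes, stalk and 5S members, RPSA, X-linked members, the 8 largest falls and 4 largest rises with a mean of at least 100 counts, members that rose, up to 2 genes per list and direction, FAU, RACK1 and copies with a mean of at least 100 counts. A few genes under this rule are not reported here. Others, such as RPL35A, RPL13A, RPL14, RPL37, RPS2, RPS10, RPS15A, RPS28, MDM4, LARP1, VIM, EPCAM, CDX2, COL1A1, COL3A1 and RPL17-C18orf32, were named after their values were seen. Alternatives were DESeq2 1.42.0 size factors and Wald test, upper-quartile factors, library size alone, TMM without the members, other filters, limma 3.58.1 voom, the replicate block, the offset, thinned counts and leaving out each library.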

Additional observations from a re-analysis of the deposited data

How the results depend on the processing

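Of 539 values of 30 named members under alternatives, 467 kept their direction and side of the threshold, 28 crossed it upward, 36 crossed it downward and 8 changed sign, all of them in RPLP0, RPL11, RPL22 and RPS21. For list genes the numbers were 419, 6, 20 and 5 of 450, and all 18 for IRS2 were kept. Library size alone gave 62 members lower, 0 higher and 20 small subunit members lower. Members higher were 0 with upper-quartile factors, 2 without a filter, with voom or with thinned counts, 6 with the length and GC offset and 5 with offset and replicate block. Leaving out each library gave 25 to 59 members past the threshold, 24 to 58 lower and 0 to 2 higher, with 13 to 34 large and 8 to 19 small subunit members lower. Over all genes the same fits gave 4319 to 5256 past the threshold. RPLP0 was at -0.0053 with upper-quartile factors and -0.0146 with library size alone (-0.0025 to 0.0375 without single libraries). RPL11 was at 0.0163 with the offset and 0.016 with offset and replicate block (-0.0387 to 0.0039 without single libraries). RACK1 was at -0.0114 with upper-quartile factors, -0.0205 with library size alone and -0.0034 with the mean filter (-0.0096 to 0.0293). Without single libraries RPL22 was at -0.0405 to 0.0091, RPS21 at -0.013 to 0.0634, the ratio of RPL36AL to RPL36A at -0.0078 to 0.0266 and that of RPL7L1 to RPL7 at -0.0001 to 0.0802. The summed paralogues differed by -0.14 with TMM factors. The causes were not tested.

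The replicate numbers are shared by both groups, but same-numbered libraries did not deviate together (correlations -0.0747, -0.0416 and -0.2209). With 3 libraries per group, each centred on its group mean, this check cannot exclude shared seeding or handling. With the replicate block 34 members were lower, all among the 41, and 0 higher, RPL10 at an adjusted p of 0.0613. Depth limits RPL39L, RPL3L and RPL10L, which had at most 30 counts in a library.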
